A study of Mus musculus with 36 samples.

Results

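The growth hormone and IGF axis of the liver was followed through 10 genes, chosen by name from the 54532 genes of the deposited count table. They are the growth hormone receptor *Ghr*, the transcription factors *Stat5a* and *Stat5b*, the feedback inhibitors *Socs2* and *Cish*, the hormone gene *Igf1*, the carrier subunit gene *Igfals*, and the IGF binding protein genes *Igfbp1*, *Igfbp2* and *Igfbp4*. All 10 were among the 17994 genes with enough counts to be tested. Livers came from 36 adult male mice on regular chow under a light and dark cycle, 18 of them controls and 18 knockouts, with 3 of each genotype killed every 4 h from ZT2 to ZT22 (zeitgeber time, counted in hours from lights on). Controls were THRB+/-, so they too carry 1 altered allele (named WT in the sample labels), and knockouts were THRB-/-. The line, B6.129S1-Thrbtm1Df/J bred on a C57Bl/6NCrl background, lacks both isoforms of the beta thyroid hormone receptor in every tissue, pituitary included. Each library is 1 mouse, marked a, b or c within its group, and transcripts were measured, not hormones or proteins.

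Growth hormone from the pituitary binds its receptor on hepatocytes, which activates the kinase JAK2 and then the STAT5 proteins. These enter the nucleus and switch on *Igf1*, *Igfals* and the inhibitors *Socs2* and *Cish*, which damp the signal again. Secreted IGF1 circulates bound to binding proteins, largely in a complex with the acid-labile subunit that *Igfals* encodes, while *Igfbp1* is known as a gene that insulin represses and fasting induces through FOXO1. In male rodents growth hormone is secreted in pulses, so liver STAT5 is known to be active in bursts.

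Letters that STAT5 and FOXO1 are known to recognise were looked for in the windows around the RefSeq start sites of the members (GRCm38.p6, 250 bases before to 50 bases after each start, both strands). Such windows were found for 9 of the 10 members, 15 in all, and *Socs2* was not searched. The STAT5 letters TTCNNNGAA stood in the windows of *Cish* and *Igfals* and of no other of the 9, and they stood in 8.30% of all 32851 windows of this length. *Cish* held 2 copies, a count reached or passed by 0.457% of windows. The forkhead letters CAAAACA stood in the window of *Igfbp1* and in 6.28% of all windows. The stretches with STAT5 or forkhead letters are shown because they bear on known regulators of these genes, with the letters searched in capitals and all read on the strand of the gene.
Cish, chr9:107296654-107296683, plus strand: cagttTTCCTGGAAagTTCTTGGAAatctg
Igfals, chr17:24877598-24877626, plus strand: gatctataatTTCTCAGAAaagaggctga
Igfals, second start site, chr17:24878163-24878191, plus strand: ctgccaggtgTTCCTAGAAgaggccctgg
Igfbp1, chr11:7197669-7197695, plus strand: agctcacaagCAAAACAaacttatttt
The copies of *Cish* begin 0 and 11 bases from its start site, those of *Igfals* at -236 and -58 bases from theirs, and that of *Igfbp1* at -108 bases. AGGTCA, a half-site of nuclear receptors, stood in windows of *Igf1*, *Igfals*, *Stat5a* and *Stat5b* and in 16.3% of all windows. Of the members with matches *Igfals* had 3 windows, *Stat5a* and *Stat5b* 2 each, and *Igf1*, *Cish* and *Igfbp1* 1 each. The shares count each window alone, so a gene with more windows had more chances of a match. A match of letters is no evidence of binding.

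Libraries held from 29063273 to 42530551 counts on genes, with medians of 33540565 in controls and 34190848 in knockouts. *Thrb* itself was counted at 24.3 to 38.5 CPM (counts scaled to the size of the library) in controls and 26.2 to 37.7 CPM in knockouts, and counts per gene gave no check of the genotype. The 6 hepatocyte markers summed to between 65390 and 96657 CPM, against 383 CPM at most for the 5 Kupffer cell markers and 18.3 CPM at most for the 4 cholangiocyte markers. No marker was at 0 in every library. Between genotypes 0 of 29 markers of 6 cell types were called in edgeR or in DESeq2, beside 0.95% of all tested genes in edgeR. An unadjusted p under 0.05 was reached in edgeR by 3 markers, *Apoa1*, *Sox9* and *Ttr*, and by 2169 of all 17994 genes. By sign all 5 Kupffer cell and all 4 cholangiocyte markers were lower in knockouts, with 4 of 6 hepatocyte and 3 of 4 lymphocyte markers. Of the 5 sinusoidal endothelial and of the 5 stellate cell markers 3 were higher and 2 lower. One library stands apart for this axis. Control mouse b at ZT6 had the lowest *Ghr*, *Igf1* and *Igfals* of all 36 mice, at 346, 441 and 91.2 CPM, and the highest *Igfbp1* and *Igfbp2*, at 160 and 601 CPM.

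Compared per length of annotated exons, *Igfbp4* and *Igfbp2* had the highest levels of the axis. This length ran from 1525 bases for *Igfbp1* to 9904 for *Igf1*. It need not be the length of the transcripts made in liver, and the order of members depends on it. *Igfbp4* had 369 ± 70.5 RPKM (CPM divided by the length of the exons in kilobases, SD, n = 36), *Igfbp2* 174 ± 65.8 RPKM and *Igfals* 81.9 ± 13.96 RPKM. *Igf1* with 58.6 ± 6.51 RPKM and *Ghr* with 55.7 ± 6.23 RPKM followed within each other's spread. By mean *Igfbp1* came next with 23.9 ± 21.5 RPKM and a median of 16.3, then *Stat5b* with 11.3 ± 2.69 RPKM, an order within the spread of *Igfbp1*. *Cish* with 3.76 ± 3.28 RPKM, *Socs2* with 2.71 ± 1.98 RPKM and *Stat5a* with 2.48 ± 0.585 RPKM were lowest and could not be put in order beyond their spread.

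Between genotypes 1 of the 10 members passed, *Igfbp4*, which fell to 0.89 of the control level in knockout livers. In the same comparison, which takes all mice together with sampling time in the model (quasi-likelihood test of edgeR, Benjamini-Hochberg adjusted over all tested genes), 171 of 17994 genes or 0.95% passed, 0.445% with the knockout lower. With time in the model an unadjusted p under 0.05 was reached by 4 members, *Igfbp4*, *Stat5a*, *Igf1* and *Stat5b*, and by 2169 of all 17994 genes. By sign 5 members were higher and 5 lower in knockouts, with a median log2 difference of 0.06 against -0.00112 over all tested genes. With the sampling times pooled and time left out of the model, no member passed and none did in DESeq2, while 0.361% of all genes passed. An unadjusted p under 0.05 was reached there by 1 member, *Igf1*, and by 1259 of all 17994 genes. A lower transcript level in whole liver cannot be told apart from fewer cells that carry it.

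**Figure D1:**
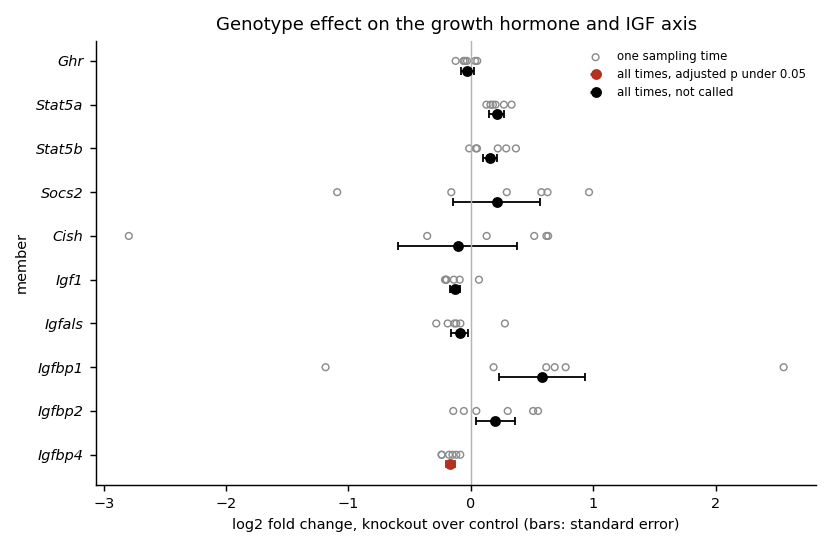
Log2 fold change of knockout over control for each of the 10 members, with all sampling times together and time in the model (filled points, bars are standard errors) and at each of the 6 sampling times (open points). *Igfbp4* is the member called, at -0.17, with all 6 open points left of 0, while *Cish* and *Igfbp1* range over several log2 units between times.

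*Igfbp4*, on chromosome 11 of GRCm38 from 99041244 to 99054392, encodes a binding protein known to hold IGF1 away from its receptor until a protease cuts it. At ZT10 the 3 control mice had 2151, 2065 and 2239 CPM and the 3 knockout mice 1890, 1863 and 1723 CPM. At ZT14 the control mice had 2017, 1984 and 2147 CPM against 1931, 1895 and 1836 CPM, and at ZT22 1550, 1345 and 1415 CPM against 1331, 1288 and 1190 CPM. At these 3 times every knockout mouse lay below every control mouse. At ZT2, ZT6 and ZT18 single mice of both genotypes overlapped, as at ZT2 with 1432, 1319 and 1371 CPM in controls and 1334, 1080 and 1076 CPM in knockouts. Of all tested genes 0.639% had the knockout mice below all control mice at 3 or more of the 6 times.

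The mean of *Igfbp4* was lower in knockouts at 6 of 6 times, and the log2 fold change came to -0.17 ± 0.037 (standard error) with an adjusted p of 0.0134. It kept its call in each of the 36 fits that left out 1 mouse, with adjusted p from 0.00302 to 0.0279. Fits on the 24 mice that remain when all mice of a letter are left out gave log2 fold changes from -0.19 to -0.14 but no call, with adjusted p of 0.176 without a, 0.0565 without b and 0.343 without c.

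*Igfbp4* also had a daily course in both genotypes. In controls its mean rose from 1374 CPM at ZT2 to 2152 CPM at ZT10, and in knockouts from 1163 CPM at ZT2 to 1887 CPM at ZT14. The fitted 24 h curve peaked at ZT12.1 (standard error 0.399 h) in controls and ZT12.2 (0.380 h) in knockouts, at the turn from light to dark. The adjusted p of this rhythm was 1.4e-05 in controls and 1.35e-05 in knockouts.

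**Figure D2:**
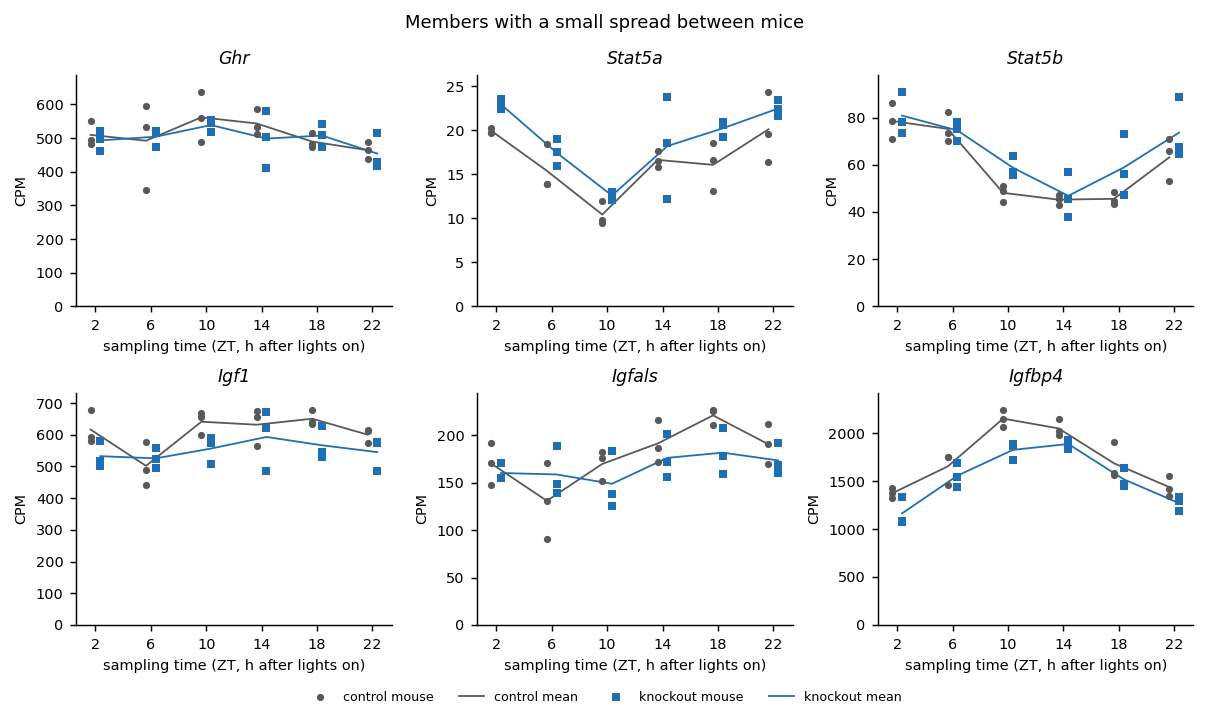
CPM of *Ghr*, *Stat5a*, *Stat5b*, *Igf1*, *Igfals* and *Igfbp4* in each of the 36 mice by sampling time (points), with lines through the mean of 3 mice. *Igfbp4* is highest at ZT10 and ZT14 with the knockout line lower at all 6 times, *Stat5a* is lowest at ZT10 with the knockout line higher at all 6 times, and control mouse b at ZT6 is the lowest point for *Ghr*, *Igf1* and *Igfals*.

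Rhythms of 24 h were called for 5 of 10 members in control livers and for 3 of 10 in knockout livers. They were called for 33% of all tested genes in controls and for 28.9% in knockouts. DESeq2 called the same 5 and 3 members, beside 6529 and 5854 of all 17994 genes. *Igfbp4*, *Stat5a* and *Stat5b* were called in both genotypes, and *Igfals* and *Igfbp1* in controls. The rhythm itself differed between genotypes for none of the 10 members and for 0% of all tested genes (553 genes had an unadjusted p under 0.05, among them 1 member, *Igfbp1*), and DESeq2 likewise called none. The members called in controls alone are thus not shown to have lost their rhythm.

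*Ghr*, the receptor gene on chromosome 15 from 3317760 to 3583492, showed no detectable difference. Control mice ranged from 346 to 637 CPM with a median of 503, and knockout mice from 410 to 581 CPM with a median of 512. The genotypes overlapped at every time, and the log2 fold change of -0.03 ± 0.052 (standard error) gave an adjusted p of 0.881. Its group means differed at most 1.21-fold between times in controls (561 CPM at ZT10, 464 CPM at ZT22) and 1.19-fold in knockouts. No rhythm was called in either genotype (adjusted p = 0.336 and 0.387), although without control mouse b at ZT6 the control rhythm had an adjusted p of 0.0301.

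*Stat5a* and *Stat5b* lie side by side on chromosome 11, from 100859351 to 100885169 and from 100780731 to 100850724. *Stat5a* had a higher mean in knockouts at 6 of 6 times. At ZT2 the 3 controls had 19.7, 19.9 and 20.3 CPM and the 3 knockouts 22.4, 22.8 and 23.6 CPM, and at ZT10 12.0, 9.85 and 9.50 CPM stood against 12.1, 13.0 and 12.8 CPM. At ZT18 16.6, 13.1 and 18.5 CPM stood against 19.2, 20.6 and 20.9 CPM. Every knockout mouse was above every control mouse at these 3 times, an order that 0.678% of all tested genes had at 3 or more times.

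*Stat5a* had a log2 fold change of 0.21 ± 0.061 (standard error), which at an adjusted p of 0.0902 was not called. DESeq2 called it at an adjusted p of 0.0497, and so did edgeR with mice of the same time and letter as blocks (adjusted p = 0.0377). Without knockout mouse c at ZT14, which had 12.2 CPM beside 18.6 and 23.8 CPM in its group, the adjusted p in edgeR was 0.00804. Without control mouse a at ZT22 it was 0.0479 and without control mouse c at ZT6 0.0443, and the other 33 fits with 1 mouse left out gave no call. For *Stat5b* it was 0.16 ± 0.059 (standard error) with an adjusted p of 0.230, with knockout mice above all control mice at ZT10 alone, as for 3.98% of all genes at that time.

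In both genotypes the lowest mean of *Stat5a* was at ZT10, in the light phase, and that of *Stat5b* at ZT14, in the dark phase. *Stat5a* fell in controls from 20.1 CPM at ZT22 to 10.4 CPM at ZT10 and in knockouts from 22.9 CPM at ZT2 to 12.6 CPM at ZT10. Its fitted peaks were ZT22.6 (standard error 0.904 h) and ZT22.5 (0.749 h), with adjusted p of 0.00492 and 0.00272. *Stat5b* fell in controls from 78.5 CPM at ZT2 to 45.2 CPM at ZT14 and in knockouts from 80.8 to 46.8 CPM between the same times.
The fitted peaks of *Stat5b* were ZT2.81 (standard error 0.392 h) and ZT2.15 (0.686 h), with adjusted p of 1.77e-06 and 0.000867. The fitted peak of *Stat5b* thus came hours after that of *Stat5a* in both genotypes, a difference that was not tested. The group means did not show it in knockouts, where both genes were highest at ZT2. In controls the mean of *Stat5a* was 20.1 CPM at ZT22 and 19.9 CPM at ZT2. Their transcripts share 265 stretches of 100 bases, 3.44% of those in *Stat5a*, and *Stat5a* overlaps *Stat3* by 72 bases on the other strand. Reads from there could be assigned to either gene or left uncounted.

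The feedback inhibitors *Socs2* and *Cish* varied widely between mice. *Socs2*, on chromosome 10 from 95385362 to 95417180, ranged from 5.17 to 59.0 CPM in controls (median 17.7) and from 5.79 to 85.0 CPM in knockouts (median 24.9). *Cish*, on chromosome 9 from 107296026 to 107302784, ranged from 3.47 to 69.2 CPM in controls (median 14.6) and from 1.63 to 67.7 CPM in knockouts (median 16.6), 42.4-fold over all mice. On the other strand *Cish* overlaps *Gm17040*, with a mean of 29.97 counts against 819. Mice killed at the same time with the same genotype could stand at both ends. At ZT2 the 3 knockout mice had 56.2, 1.63 and 24.5 CPM of *Cish* and 85.0, 13.6 and 10.4 CPM of *Socs2*.

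No genotype difference could be seen through this spread. Log2 fold changes were 0.21 ± 0.355 (standard error) for *Socs2* and -0.11 ± 0.485 for *Cish*, at adjusted p of 0.873 and 0.958, and changes of the size seen for *Igfbp4* were not detectable for either. At ZT18 the knockout mice had 6.50, 4.25 and 3.47 CPM of *Cish* and the control mice 45.8, 41.7 and 11.1 CPM. The groups did not overlap there, as 5.16% of all genes did not with the knockout lower, and the contrast at ZT18 gave a log2 fold change of -2.80 ± 1.22 (standard error), at an unadjusted p of 0.0299 and an adjusted p of 0.906. *Socs2* overlapped between genotypes at every time, at ZT18 with 12.5, 25.6 and 5.79 CPM in knockouts and 10.6, 59.0 and 23.4 CPM in controls. No rhythm was called for *Socs2* or *Cish* in either genotype, although *Cish* in knockouts passed at an adjusted p of 0.0492 without knockout mouse b at ZT22.

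**Figure D3:**
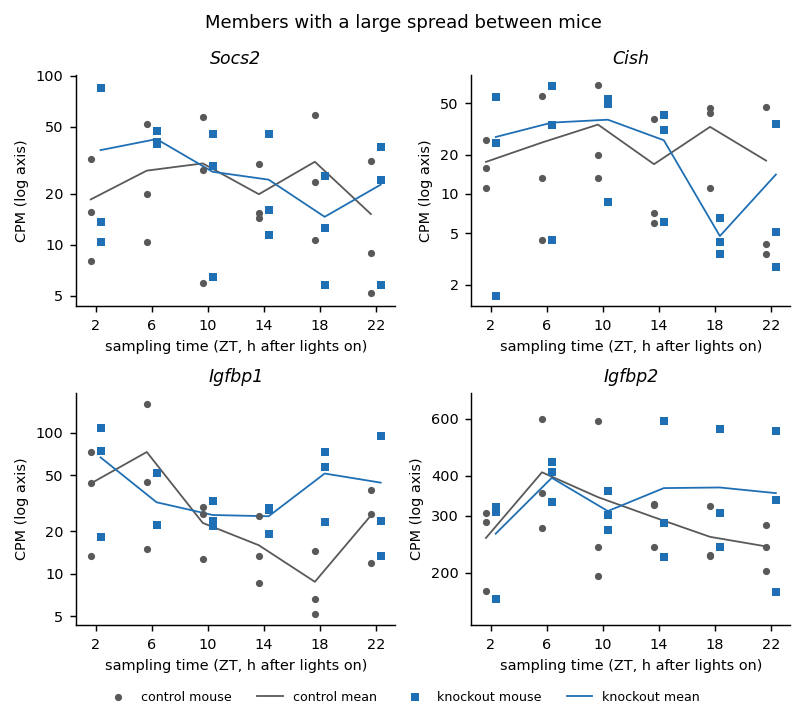
CPM on a log axis of *Socs2*, *Cish*, *Igfbp1* and *Igfbp2* in each of the 36 mice by sampling time (points), with lines through the mean of 3 mice. The 3 knockout mice at ZT2 span 1.63 to 56.2 CPM of *Cish*, and at ZT18 the 3 knockout mice lie below the 3 control mice for *Cish* and above them for *Igfbp1*.

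Across the 11918 genes with a mean of at least 50 counts, the SD of log2 CPM between mice sharing genotype and time had a median of 0.174. *Cish* stood at 1.64, the 99.8th percentile, *Socs2* at 1.22 (99.6th), *Igfbp1* at 1.02 (99.3rd) and *Igfbp2* at 0.535 (96.4th). The other 6 members lay between the 14.4th percentile, where *Igfbp4* stood with 0.108, and the 64.5th, where *Igfals* stood with 0.215. *Igf1* stood at 0.134, the 29.3rd percentile. For *Socs2* and *Cish*, which like it are targets of STAT5, 1 SD from the group mean was a factor of 2.33 and 3.12.

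**Figure D4:**
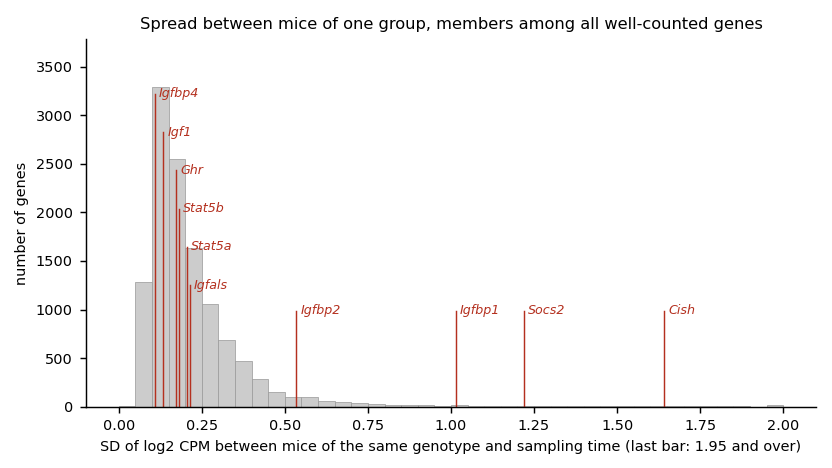
Number of genes by the SD of log2 CPM between mice alike in genotype and sampling time, for 11918 genes with a mean of at least 50 counts, with the 10 members marked by red lines of arbitrary height. *Igfbp2*, *Igfbp1*, *Socs2* and *Cish* lie far to the right of the bulk, and the other 6 lie within it.

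*Socs2* and *Cish* deviated together over all 36 mice. Over the 36 mice, deviations of log2 CPM from the mean of the same genotype and time had Pearson's r = 0.58 and Spearman's rho = 0.587 (two-sided permutation tests within groups, p = 0.00354 and 0.00319, adjusted over 6 pairs 0.0106 and 0.00957). The sign was shared in 27 of 36 mice, and r was 0.53 without the 2 mice farthest from the median of *Socs2*. Within genotypes r was 0.68 in controls (permutation p = 0.0128, adjusted 0.077) and 0.50 in knockouts (permutation p = 0.109, adjusted 0.326). With all mice of a letter left out the relation lost its call without a (r = 0.515, adjusted permutation p = 0.247) and without c (r = 0.603, adjusted permutation p = 0.153).

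No relation of *Igf1* with either inhibitor was called. For *Cish* and *Igf1* r was -0.10 and rho -0.0595 (permutation p = 0.62 and 0.773, adjusted 0.62 and 0.773). For *Socs2* and *Igf1* r was 0.28 and rho 0.298 (permutation p = 0.147 and 0.125, adjusted 0.293 and 0.193). Both depended on which mice were kept, since without the mice of letter b r was 0.47 for *Cish* and *Igf1* and 0.68 for *Socs2* and *Igf1*, and without those of letter a it was -0.49 and -0.05.

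**Figure D5:**
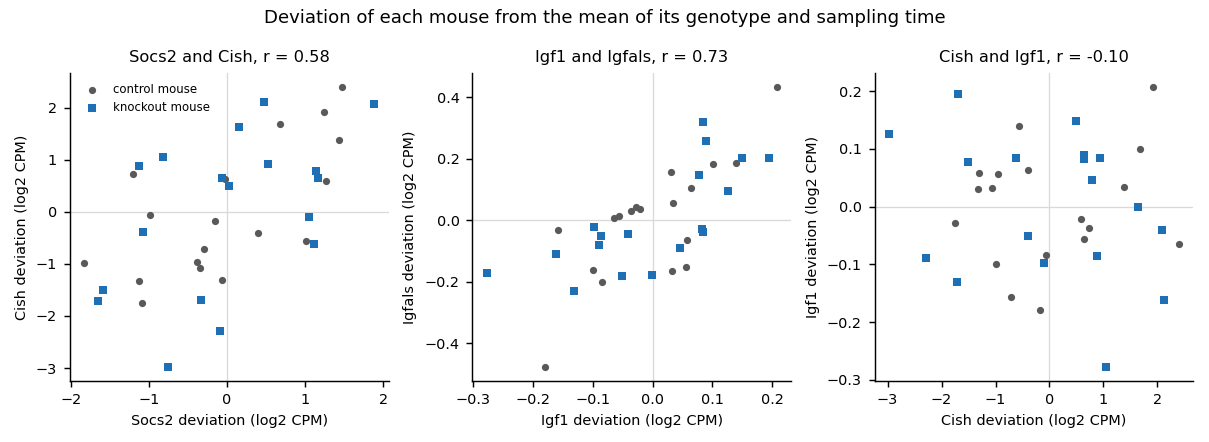
Deviation of log2 CPM in each of the 36 mice from the mean of its genotype and sampling time, for 3 pairs of members. Points rise together for *Socs2* with *Cish* (r = 0.58) and *Igf1* with *Igfals* (r = 0.73), and show no common slope for *Cish* with *Igf1* (r = -0.10).

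*Igf1*, on chromosome 10 from 87858265 to 87937042, varied less. On the other strand it overlaps *Igf1os*, which had a mean of 50.6 counts against 19771 for *Igf1*. Control mice ranged from 441 to 678 CPM (median 614) and knockout mice from 485 to 672 CPM (median 552). At ZT2 the 3 controls had 580, 592 and 678 CPM and the 3 knockouts 517, 580 and 501 CPM, at ZT10 598, 670 and 656 CPM stood against 507, 589 and 573 CPM, and at ZT18 634, 641 and 677 CPM stood against 627, 529 and 546 CPM. At these 3 times every knockout mouse was below every control mouse, by narrow margins (at ZT2 the nearest mice both round to 580 CPM), which is the order that 0.639% of all genes had at 3 or more times.

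The mean of *Igf1* was lower in knockouts at 5 of 6 times, the exception being ZT6, where control mouse b stands apart. With all mice the log2 fold change was -0.13 ± 0.045 (standard error) at an adjusted p of 0.190, and without that mouse it was -0.15 with an adjusted p of 0.0761, so a lower *Igf1* was not called. The 24 h rhythm of *Igf1* was not called in controls (adjusted p = 0.178) or knockouts (adjusted p = 0.416).

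*Igfals* encodes the subunit that holds IGF1 in its large circulating complex, and lies on chromosome 17 from 24878770 to 24882008. Control mice ranged from 91.2 to 227 CPM (median 179) and knockout mice from 125 to 208 CPM (median 164). Between genotypes *Igfals* had a log2 fold change of -0.09 ± 0.069 (standard error) and an adjusted p of 0.664. At ZT18 the controls had 226, 227 and 211 CPM and the knockouts 208, 178 and 160 CPM, and the groups did not overlap there, an order that 5.16% of all genes had at this time. In controls its mean rose from 131 CPM at ZT6 to 221 CPM at ZT18, with a fitted peak at ZT18.0 (standard error 0.905 h, adjusted p = 0.00593), and without control mouse b at ZT6 the rhythm stayed called (adjusted p = 0.00574). In knockouts the means ran from 149 CPM at ZT10 to 182 CPM at ZT18 with no call (adjusted p = 0.239), although without the mice of letter b the rhythm was called (adjusted p = 0.0366), and the difference of the rhythms had an unadjusted p of 0.158.

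*Igf1* and *Igfals* moved together between mice of a group, with r = 0.73 and rho = 0.728 over 36 mice (permutation p = 0.00012 and 0.00011, adjusted over 6 pairs 0.00072 and 0.00066). The sign was shared in 25 of 36 mice, r was 0.70 without the 2 mice farthest from the median of *Igf1* and 0.69 without control mouse b at ZT6. It was 0.75 in controls (permutation p = 0.0286, adjusted 0.0857) and 0.73 in knockouts (permutation p = 0.0031, adjusted 0.0186), and over both without the mice of letter a it was 0.564 and lost its call (adjusted permutation p = 0.138). *Ghr* and *Igf1* had r = 0.33 and rho = 0.331 (permutation p = 0.267 and 0.143, adjusted 0.357 and 0.193), which fell to r = 0.15 without control mouse b at ZT6.

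*Igfbp1*, on chromosome 11 from 7197782 to 7202546, was the binding protein gene with the widest range, from 5.19 to 160 CPM in controls (median 20.4) and from 13.4 to 108 CPM in knockouts (median 26.2). At ZT18 the 3 control mice had 5.19, 6.56 and 14.5 CPM and the 3 knockout mice 23.2, 57.4 and 73.8 CPM. The groups did not overlap at this time, as 5.22% of all genes did not with the knockout higher. There the log2 fold change was 2.56 ± 0.781 (standard error) at an unadjusted p of 0.00276, but its adjusted p was 0.706. At ZT6 the sign was the other way, -1.19 ± 0.731, with 15.0, 160 and 44.5 CPM in controls and 22.3, 22.2 and 52.0 CPM in knockouts. Without control mouse b the control mean at ZT6 was 29.8 CPM, below the 32.2 CPM of knockouts, so the direction of the means turned.

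Over all times the log2 fold change of *Igfbp1* was 0.58 ± 0.348 (standard error) at an adjusted p of 0.527, and 0.81 with an adjusted p of 0.217 without control mouse b at ZT6. The difference of its genotype effect between times had an unadjusted p of 0.0506 and an adjusted p of 0.9999. In controls a rhythm was called (adjusted p = 0.00449, fitted peak ZT4.61, standard error 1.13 h), with means from 73.2 CPM at ZT6 to 8.76 CPM at ZT18, an 8.35-fold range. Without control mouse b at ZT6 the rhythm stayed called (adjusted p = 0.0265), while the highest mean was 43.7 CPM at ZT2 and the range 4.99-fold. Without the mice of letter b or of letter c it was not called, with an adjusted p of up to 0.163.
In knockouts the means of *Igfbp1* ran from 67.0 CPM at ZT2 to 25.6 CPM at ZT14 and no rhythm was called (adjusted p = 0.150), except without knockout mouse b at ZT22 (adjusted p = 0.0421). The difference of the *Igfbp1* rhythm between genotypes had an unadjusted p of 0.00691 and an adjusted p of 1.

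*Igfbp2*, on chromosome 1 from 72824503 to 72852474, is a binding protein gene of fetal and adult liver. Control mice ranged from 175 to 601 CPM (median 277) and knockout mice from 165 to 590 CPM (median 314), with overlap at every time. With a log2 fold change of 0.20 ± 0.159 (standard error) *Igfbp2* was not called (adjusted p = 0.675), and no rhythm was called (adjusted p = 0.135 in controls and 0.898 in knockouts), although without control mouse a at ZT10 the control rhythm had an adjusted p of 0.0402. Deviations of *Igfbp1* and *Igfbp2* had r = -0.24 and rho = -0.294 over 36 mice (permutation p = 0.298 and 0.161, adjusted 0.357 and 0.193). Without control mouse b at ZT6 they were -0.42 and -0.434 (permutation p = 0.0539 and 0.0349, adjusted 0.108 and 0.0698).

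At single sampling times no member passed in any of the 6 comparisons of 3 knockout with 3 control mice, and DESeq2 called none. The share of all tested genes that passed after adjustment was 0.0278% at ZT2, 0.0111% at ZT6, 0.0167% at ZT10 and at ZT14, and 0.0222% at ZT18 and at ZT22. At an unadjusted p under 0.05 there was 1 member at ZT2 and 1 at ZT10, *Igfbp4* both times, 4 at ZT18 (*Cish*, *Igfbp1*, *Stat5a* and *Stat5b*) and 0 at ZT6, ZT14 and ZT22. Of all 17994 tested genes 977 reached this at ZT2, 786 at ZT6, 741 at ZT10, 960 at ZT14, 964 at ZT18 and 851 at ZT22. The genotype effect differed between times for 0 members (0 at an unadjusted p under 0.05) and for 0% of all genes (484 at an unadjusted p under 0.05), and for none in DESeq2.

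Of 34 other genes of the pathway 31 were counted enough to be tested, all but *Igf2*, *Pappa* and *Pappa2*. In the comparison with all times together 17 were higher and 14 lower in knockouts, with a median log2 difference of 0.03, and none passed in edgeR or DESeq2, beside 0.95% of all genes. An unadjusted p under 0.05 was reached by 3 of the 31, and by 2169 of all 17994 genes. The 3, all higher, are the insulin receptor gene *Insr* with a log2 fold change of 0.10 ± 0.030 (adjusted p = 0.116), the prolactin receptor gene *Prlr* with 0.23 ± 0.085 (adjusted p = 0.222) and *Igfbp7* with 0.14 ± 0.059 (adjusted p = 0.300).

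Daily rhythms were called for 13 of the 31 in controls and 9 in knockouts, beside 33% and 28.9% of all tested genes. DESeq2 called 14 and 11 of the 31, beside 6529 and 5854 of all 17994 genes. Among receptors and kinases, *Insr* and the IGF2 receptor gene *Igf2r* peaked in the light phase in both genotypes, *Insr* at ZT7.75 (standard error 0.673 h) and ZT7.70 (0.828 h), and the kinase gene *Jak2* was called in controls (peak ZT6.77, adjusted p = 0.0194). Among the inhibitors *Socs4*, *Socs7* and the phosphatase gene *Ptpn6* were called in both genotypes, *Ptpn1* in controls and *Socs3* in knockouts. *Socs7* was highest at ZT10 in both, at 17.1 and 18.7 CPM, and lowest at ZT22, at 11.8 and 12.9 CPM.
Among the adaptors *Grb2* was called in both genotypes, *Irs2* and *Sh2b1* in controls (*Sh2b1* in both in DESeq2) and *Shc1* in knockouts. *Igfbp7* was called in both, and the transcription factor genes *Cux2* and *Onecut1*, known as growth hormone responsive, in controls. *Onecut1* went in controls from 5.26 CPM at ZT6 to 28.7 CPM at ZT18. A difference of the rhythm between genotypes was called for none of the 31 genes and for 0% of all tested genes. An unadjusted p under 0.05 in this edgeR test was reached by 2 of the 31, and by 553 of all 17994 genes. The 2 were *Socs1* at 0.00738 and *Cux2* at 0.0447, both counted low, with medians of 0.567 and 0.543 CPM. Genes called in 1 genotype alone are thus not shown to have lost or gained a rhythm.

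The genes whose log2 CPM was most like that of a member over the 36 mice differed from member to member, among 11917 genes with a mean of at least 50 counts. *Igfals* was the gene most like *Igf1* (r = 0.76), before *Ubl4a* (0.70) and *Ss18l2* (0.70). *Cish* was most like *Phlda1* (r = 0.88), *Foxa1* (0.88) and *Rnd3* (0.84), and *Socs2* was most like *Plcxd2* (0.76), *Map4k5* (0.73) and *D230025D16Rik* (0.71). *Igfbp1* was most like *Zkscan1* (r = 0.74), *Irs2* (0.71) and *Ip6k2* (0.70). These values describe shared variation over mice that differ in time and genotype, and no test was made of them.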

How the data were processed

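Per the labels and the study's methods, the authors made non-directional poly-A libraries from liver RNA, aligned read pairs by HISAT2 against GRCm38 and summed them over genes by featureCounts (versions not given in the sources used here). They deposited raw counts without normalization, one column per mouse. How reads shared by similar or overlapping genes were treated is not given, so they may be assigned to either gene or left uncounted.

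Genes reaching 100 counts in total over the 36 libraries were tested with edgeR 4.0.16 (glmQLFit and glmQLFTest with TMM factors, limma 3.58.1, R 4.3.3), as the main design for counts. The models were genotype with sampling time as a factor, genotype alone, a mean per group, genotype by time, and sine and cosine terms of a 24 h period within and between genotypes. The Benjamini-Hochberg adjustment ran over all tested genes, with calls under 0.05. CPM and RPKM use TMM library sizes, log2 CPM a prior count of 2 and RPKM the exon length of the annotation. Standard errors of log2 fold changes were not fitted but derived, as the absolute log2 fold change divided by the square root of its F value. Peak times and their standard errors came from a cosine curve fitted to log2 CPM. Correlations used 100000 permutations within groups. DESeq2 1.42.0 was an alternative, as were its size factors, other filters, blocks by letter and left-out mice. Single left-out mice, also for the group means of *Igfbp1*, were added after seeing the data. The edgeR models of the main design were checked on simulated counts. Python 3.11.15 with scipy 1.17.1 was used.

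The members and gene lists were chosen with earlier results of these data known. Named were the members, pathway genes called in any comparison or shown as examples, and for 4 members the 3 genes most like each. *Apoa1*, *Sox9*, *Ttr*, *Insr*, *Prlr*, *Igfbp7* and *Socs1* were named by their p after values were seen. The labels do not say whether the letters a, b and c pair mice.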

Additional observations from a re-analysis of the deposited data

How the results depend on the processing

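Of 246 values under alternative settings 222 kept their direction and side of the threshold or, for a count of members, stayed within 1.5 times, which lets single members cross it. In the comparison with time in the model, DESeq2 and the fit with a replicate block by letter and time each called 2 members, *Igfbp4* and *Stat5a*, and with mice left out the count ran from 0 to 2. It was 0 when any letter was left out and 2 without knockout mouse c at ZT14, control mouse a at ZT22 or control mouse c at ZT6. That block contains sampling time, so beside the comparison with times pooled the same fit stands, with the same 2 members. Deviations of mice with the same letter and time correlated at over 0.1 in 9 of 18 pairs (median 0.102, own letter highest in 15 of 18, a hint from the data only). In 17 of 18 cases the animal number in the label of a control was nearest to that of the knockout with its letter at that time, but the labels do not say that letters or numbers mark litters or batches, and the letters were not taken as pairs.

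Rhythms in knockouts were called for 2 to 5 members with mice left out, 5 without knockout mouse b at ZT22, 4 without the mice of letter b, where *Igfals* was gained, and 2 without the mice of letter a or c, where *Stat5a* was lost. In controls they were called for 4 to 6, and *Stat5a* was lost without letter a and *Igfbp1* without letter b or c. With a letter left out the log2 fold change ran from -0.083 (a) to 0.031 (c) for *Ghr*, from -0.091 (a) to 0.44 (b) for *Socs2* and from -0.19 (b) to 0.054 (a) for *Cish*, so that the direction turned for each, and none was called. With mice left out, r ran from 0.515 to 0.62 for *Socs2* and *Cish* (adjusted p 0.247 without a, 0.153 without c), from -0.0501 to 0.679 for *Socs2* and *Igf1* (adjusted permutation p 0.0373 without b), from -0.49 to 0.472 for *Cish* and *Igf1*, and from 0.564 to 0.804 for *Igf1* and *Igfals* (adjusted permutation p 0.138 without a). The causes were not tested, and fits without a letter hold fewer mice.

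Over all genes, 171 were called with time in the model, against 315 in DESeq2, 387 with the replicate block and 40, 81 and 68 without letters a, b and c. With times pooled 65 were called, and 16, 24 and 21 without the letters. The 387 of the replicate block stand beside this count too, as the same fit with time in it. Rhythms were called for 5936 genes in controls and 5201 in knockouts, against 3109 to 4005 and 2343 to 3192 without a letter. Mean counts per library ran from 605 for *Stat5a* to 55608 for *Igfbp4*, and what depth alone limits was not tested.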
